A study of Homo sapiens with 30 samples.

Results

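The 10 genes described here are targets of the hypoxia-inducible factors (HIFs) that are not enzymes of glycolysis: CA9, VEGFA, ADM, BNIP3, PDK1, SLC2A1, EGLN3, P4HA1, NDRG1 and KDM3A. They were taken by name, with earlier results of these data known, from 33892 symbols that all 3 count tables list, and each of the 10 had 1 row in each table. The question behind the choice was whether changes of the glycolysis enzymes in these cells go along with other HIF targets or with targets of the transcription factor MYC. SLC2A1 and PDK1 are no glycolysis enzymes, but they act on glucose uptake and on the fate of pyruvate, so they stand close to that pathway.

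mRNA was sequenced from 5637 cells, a human bladder carcinoma line, in 30 libraries that form 10 groups of 3. The knockout experiment held cells edited in RBPMS, an RNA-binding protein, as KO1 and KO2, each made with its own sgRNA, and a control group for each, WT1 and WT2, which the labels call wild type. The overexpression experiment held cells with an empty vector (Vector) and cells given either of the ANKRD10 isoforms, ANKRD10-1 or ANKRD10-2. The knockdown experiment held cells transfected with a control siRNA (siNC) or with an siRNA named for either isoform (siANKRD10-1, siANKRD10-2). By the discussion of the study the knockout lines were grown from single clones, so a difference between a clone and its control cannot be told apart from a difference between clones. The study's text places ANKRD10-1 overexpression and siANKRD10-2 in RBPMS knockout cells, while the labels name no genotype beyond the vector or siRNA, and the background of these libraries is therefore not settled here. If that placement holds, isoform and RBPMS background cannot be told apart in the direct comparisons of the isoforms. The same may hold against the shared controls. Neither the labels nor the methods name a low-oxygen treatment. The labels number the replicates without saying that they were separate cultures, so the p-values measure the spread between libraries, which may be technical.

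HIF is a pair of a regulated alpha subunit, HIF1A or EPAS1, and the constitutive ARNT. With oxygen at hand, prolyl hydroxylases (EGLN1, EGLN2, EGLN3) modify the alpha subunit and the VHL ubiquitin ligase then recognises it for degradation, so HIF activity is controlled mostly at the protein level, which RNA-seq does not measure. The stabilised pair binds a short element with the core ACGTG or GCGTG and raises genes for glucose uptake, glycolysis, blood vessel growth, pH regulation and mitochondrial turnover. MYC binds the related element CACGTG and also raises glycolysis enzymes, besides genes of ribosome and nucleotide synthesis.

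To show where these letters occur at the genes, the promoters of 8 of the 10 genes were read from RefSeq (GRCh38, 250 bases before to 50 after the gene start). ACGTG or GCGTG was present, on either strand, in a promoter of 7 of these 8 genes and in 48.4% of all 35116 promoters of the same length. A gene was counted if any of its promoters matched, while the share is per promoter. PDK1 and KDM3A had 2 promoters each, and PDK1 matched in only 1 of them. CACGTG, which contains ACGTG, was present at 1 of the 8 genes, BNIP3, and in 7.26% of all promoters. The windows of CA9, the gene with the largest difference in KO1, of BNIP3, and of PDK1 and P4HA1 follow, 5′ to 3′, with 1 match of ACGTG in capitals and 12 bases on either side. Further matches of ACGTG or GCGTG in the flanks of the BNIP3 and PDK1 windows are left in lower case.
CA9 (chr9:35673898-35673926, minus strand): tgtacgggctgtACGTGcattggaaacga
BNIP3 (chr10:131982041-131982069, plus strand): ggtgcgtgtggcACGTGcggcgcgtgcgc
PDK1 (chr2:172556061-172556089, minus strand): ggtacgtgagggACGTGgcgggcagcagg
P4HA1 (chr10:73096936-73096964, plus strand): gcagccctcgctACGTGagctcgatcaca
The match printed for BNIP3 lies in the CACGTG of that promoter. A match of letters is a description of these windows and says nothing of which factor was bound.

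Before the comparisons, the levels in the control cells set the scale. Values are CPM (counts per 1000000 counts of a library, after TMM scaling, edgeR's correction for the makeup of a library), and they compare 1 gene between libraries of 1 table. Per kilobase of exon, ADM was the most abundant of the 10 genes in WT1 at 26.9 CPM per kb and CA9 the least at 0.218. In siNC the highest was P4HA1 at 19.4 CPM per kb and the lowest again CA9 at 0.18. In Vector, NDRG1 stood highest at 260.1 CPM per kb and PDK1 lowest at 3.64. The 3 tables were normalised separately and no test was made across them. Set side by side, NDRG1 mRNA was at 117, 118 and 118 CPM in WT1, at 145, 152 and 158 in siNC and at 2565, 2544 and 2557 in Vector, and VEGFA was at 33.8, 30.8 and 25.4, at 118, 119 and 119 and at 370.3, 367 and 373 CPM in the same groups. The Vector libraries therefore lay above both other controls for these genes.

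Total counts were 44593108 to 69723937 in the knockout table, 31736779 to 47493499 in the overexpression table and 28511029 to 32784584 in the knockdown table. RBPMS mRNA itself was at 15.1, 15.2 and 14.3 CPM in KO1 against 39.0, 42.2 and 40.1 in WT1, and at 20.7, 19.0 and 21.3 in KO2 against 44.2, 42.8 and 42.4 in WT2, lower in both knockouts (log2 fold changes -1.44 and -1.09). Gene counts do not separate the ANKRD10 isoforms. Over the whole gene, ANKRD10 was lower in KO1 (log2 fold change -1.18, SE 0.052, adjusted p = 6.55e-08) and in KO2 (log2 fold change -0.76, SE 0.040, adjusted p = 3.98e-08). It was higher in ANKRD10-2 (0.41) and ANKRD10-1 (0.67) and lower again in siANKRD10-2 (-0.25) and siANKRD10-1 (-0.24), all past the test, though the last call was lost without siANKRD10-1 replicate 3 (-0.22) or siNC replicate 1 (-0.24). By group mean, the epithelial markers KRT8 and EPCAM were at 659 and 123 CPM or more in every group, while UPK2 did not exceed 1.43 CPM. Of the immune markers, CD3E and PTPRC did not exceed 0.228 CPM and CD14 did not exceed 1.20 CPM. Over 9 markers of fibroblasts, endothelium and immune cells the sum was 35.5 to 40.0 CPM in KO1 and 55.8 to 58.3 in WT1, most of it COL1A1, and their part in the KO1 values was not tested.

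**Figure D1:**
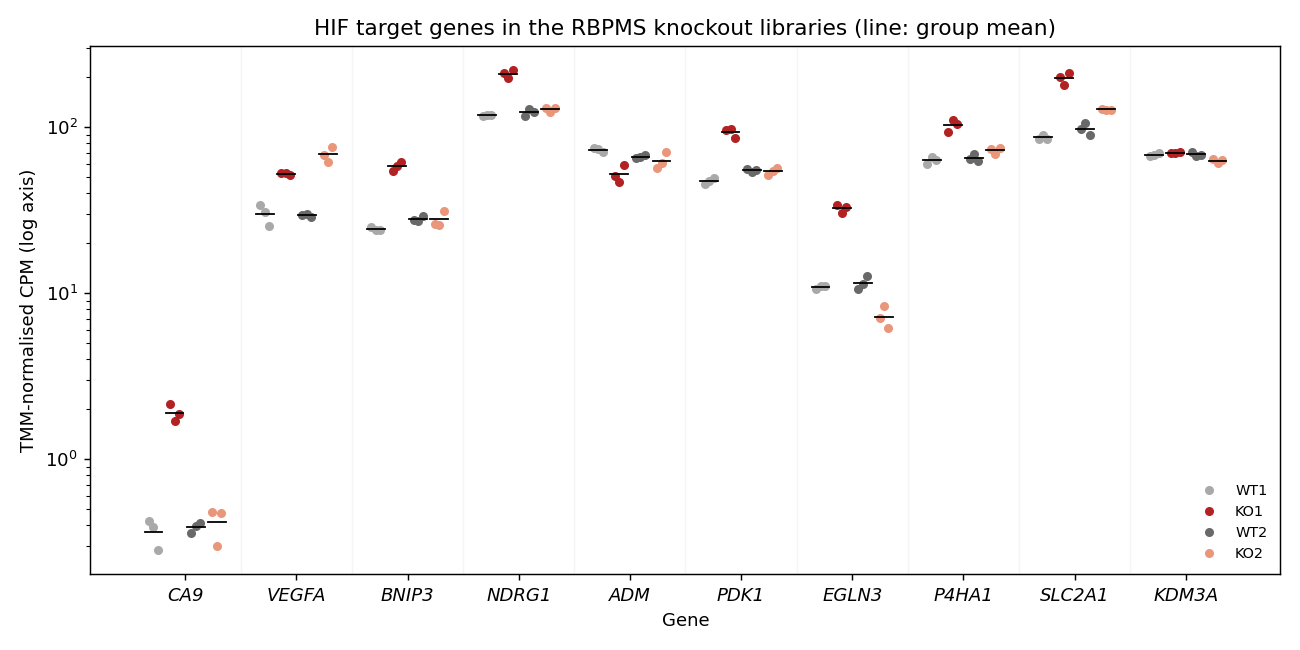
TMM-normalised CPM on a log axis for each of the 10 HIF target genes in the 12 knockout libraries, 1 point per library and a line at each group mean. KO1 lies above WT1 for 8 genes, most widely for CA9 (KO1 1.69 to 2.14 CPM, WT1 0.282 to 0.422 CPM), and below it for ADM, while KO2 lies clearly above WT2 for VEGFA and SLC2A1 and below it for EGLN3.

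In KO1, 9 of the 10 genes passed the test (an adjusted p below 0.05 by the quasi-likelihood test of edgeR, called from here on), 8 higher and 1 lower than in WT1 (n = 3 libraries a group, here and throughout). Of all 17865 genes tested in this comparison 36.1% were called, 17.9% higher and 18.2% lower. The median log2 fold change of the 10 genes was 0.90, beside -0.00199 over all genes tested. The KO1 and WT1 libraries did not overlap for 9 of the 10 genes, as for 48.7% of all genes, and CA9, EGLN3, BNIP3 and SLC2A1 were called with a change of 1 or more on the log2 scale, as were 6.43% of all genes.

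The largest difference was in CA9 (chromosome 9, 35673856 to 35681159, plus strand), a carbonic anhydrase of the cell surface that helps to export acid. Gene positions here and for the other members are on GRCh38, as given in the deposited tables of the overexpression and knockdown experiments. The level of CA9 was 2.14, 1.69 and 1.87 CPM in KO1 and 0.422, 0.389 and 0.282 CPM in WT1, from counts of 142, 74 and 97 and 22, 21 and 19 reads. All KO1 libraries lay above all WT1 libraries (log2 fold change 2.38, SE 0.31, adjusted p = 0.000166, 5.22-fold). The gene ARHGEF39, at a mean of 39.9 CPM in this table, overlaps CA9 on the genome, and it is not stated whether reads were counted by strand.

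EGLN3 (chromosome 14, 33924231 to 34462774, minus strand), the prolyl hydroxylase that HIF induces and that acts back on HIF, came next in size. It was at 34.2, 30.3 and 33.2 CPM in KO1 and at 10.6, 11.1 and 11.0 CPM in WT1, with no overlap (log2 fold change 1.58, SE 0.078, adjusted p = 1.49e-07, 2.98-fold). The gene SPTSSA, at a mean of 149 CPM in this table, lies within the span of EGLN3 on the genome.

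Genes of mitochondria and glucose use followed. BNIP3 (chromosome 10, 131966455 to 131982013, minus strand), a mitochondrial protein that promotes mitophagy, was at 54.6, 58.7 and 61.5 CPM in KO1 and at 25.1, 23.9 and 23.8 CPM in WT1 (log2 fold change 1.26, SE 0.066, adjusted p = 2.22e-07). SLC2A1 (chromosome 1, 42925375 to 42959173, minus strand), the glucose transporter GLUT1, was at 201, 179.5 and 212 against 85.3, 89.9 and 85.3 CPM (log2 fold change 1.18, SE 0.063, adjusted p = 2.69e-07). PDK1 (chromosome 2, 172555373 to 172608669, plus strand), the kinase that switches off pyruvate dehydrogenase and so keeps pyruvate out of mitochondria, was at 96.0, 96.9 and 85.6 against 45.7, 47.3 and 49.4 CPM (log2 fold change 0.97, SE 0.062, adjusted p = 1.09e-06). For each of these 3 genes the lowest KO1 library was above the highest WT1 library.

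NDRG1 (chromosome 8, 133237171 to 133302022, minus strand), a stress-responsive cytoplasmic protein, and P4HA1 (chromosome 10, 73007217 to 73096974, minus strand), the alpha subunit of collagen prolyl 4-hydroxylase, rose by less. NDRG1 was at 211, 197 and 221 CPM in KO1 against 117, 118 and 118 CPM in WT1 (log2 fold change 0.83, SE 0.051, adjusted p = 7.75e-07), and P4HA1 at 93.7, 111 and 104 against 60.1, 66.1 and 63.1 CPM (log2 fold change 0.70, SE 0.068, adjusted p = 1.88e-05).

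The secreted factors went opposite ways. VEGFA (chromosome 6, 43770184 to 43786487, plus strand), the main growth factor of blood vessels, was at 52.6, 53.2 and 51.5 CPM in KO1 and at 33.8, 30.8 and 25.4 CPM in WT1 (log2 fold change 0.81, SE 0.092, adjusted p = 6.16e-05). ADM (chromosome 11, 10304680 to 10307397, plus strand), the precursor of the vasodilator adrenomedullin, was the gene that fell, with 50.9, 46.5 and 58.8 CPM in KO1 and 74.9, 73.8 and 70.6 CPM in WT1 (log2 fold change -0.49, SE 0.078, adjusted p = 0.000601). Neither gene's groups overlapped. KDM3A (chromosome 2, 86440647 to 86492716, plus strand), a histone H3 lysine demethylase, did not pass, with 69.4, 70.2 and 71.3 CPM in KO1 and 66.6, 68.2 and 69.6 CPM in WT1 (log2 fold change 0.043, 95% interval -0.066 to 0.15).

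In KO2, 5 of the 10 genes were called, 3 higher and 2 lower than in WT2, where 38.5% of all 18267 genes tested were called, 19.3% higher and 19.2% lower. The median over the 10 genes was 0.016, beside -0.0161 over all genes. The libraries of KO2 and WT2 did not overlap for 5 of the 10 genes, as for 49.5% of all genes, and 1 of the 10, VEGFA, was called with a change of at least 1 on the log2 scale, as were 5.99% of all genes. Of the 10, VEGFA differed most. It was at 68.2, 61.8 and 75.8 CPM in KO2 and at 29.5, 29.9 and 28.8 CPM in WT2 (log2 fold change 1.22, SE 0.067, adjusted p = 5.32e-08), so the highest WT2 library stood far below the lowest KO2 library.

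SLC2A1 was also higher, at 129, 127 and 127 against 97.4, 105 and 90.1 CPM (log2 fold change 0.38, SE 0.053, adjusted p = 0.000109). EGLN3 was lower, at 7.09, 8.35 and 6.13 CPM in KO2 against 10.6, 11.3 and 12.6 CPM in WT2 (log2 fold change -0.68, SE 0.13, adjusted p = 0.00137), with no overlap between the groups. The calls of P4HA1 (log2 fold change 0.15, SE 0.052, adjusted p = 0.036) and KDM3A (log2 fold change -0.13, SE 0.046, adjusted p = 0.0429) were lost when WT2 replicate 1 or 3 was left out, which left 3 of the 10 genes called. Without KO2 replicate 3 both were lost as well and ADM was called in their place, and without KO2 replicate 1 or 2 only P4HA1 or only KDM3A was lost. Without the filter on low counts both were lost. The P4HA1 call was also lost with library totals (0.11) or all groups of the table in 1 fit (0.16), and the KDM3A call with RLE factors (-0.12).

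CA9, BNIP3, NDRG1, PDK1 and ADM were not called in KO2. Their log2 fold changes were 0.10 (95% interval -0.90 to 1.10), -0.017 (-0.18 to 0.15), 0.049 (-0.048 to 0.15), -0.026 (-0.14 to 0.084) and -0.089 (-0.24 to 0.059). Behind the wide interval of CA9 are counts of 27, 15 and 30 reads in KO2 and 24, 22 and 29 in WT2. The 111 tested genes within 5 Mb of CA9 had a median change of -0.41 (log2) in KO2, and the 110 tested in KO1 a median of 0.11, and their part in the values of CA9 was not tested.

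The knockouts were then compared, over all 12 libraries, by the change in KO1 against WT1 minus the change in KO2 against WT2. For 9 of the 10 genes it passed, 7 with the larger value in KO1 and 2 (VEGFA and ADM) with the larger value in KO2, where 23.3% of all 19189 genes tested were called, 11.2% with the larger value in KO1 and 12.1% with the larger value in KO2. CA9, EGLN3 and BNIP3 were called with a difference of 1 or more on the log2 scale, as were 5.52% of all genes. The difference was 2.27 (SE 0.46) for CA9, 2.26 (SE 0.15) for EGLN3, 1.27 (SE 0.10) for BNIP3, 0.99 (SE 0.080) for PDK1, 0.80 (SE 0.087) for SLC2A1, 0.78 (SE 0.068) for NDRG1 and 0.55 (SE 0.089) for P4HA1 on the log2 scale. It was -0.42 (SE 0.12) for VEGFA and -0.40 (SE 0.11) for ADM. EGLN3 was the gene called in opposite directions, above its control in KO1 and below it in KO2. The VEGFA call was lost without WT1 replicate 1 or 2, KO2 replicate 3 or WT2 replicate 3 (differences from -0.40 to -0.32), and the ADM call without KO2 replicate 3 (-0.31). Between the control groups themselves, WT2 against WT1, edgeR called 0 of the 10 genes, while 4 had an unadjusted p under 0.05 and DESeq2 called 1 (PDK1). Of all genes, 1.23% were called there and 13.3% had an unadjusted p under 0.05. WT1 and WT2 did not overlap for 4 of the 10 genes (BNIP3, ADM, PDK1 and SLC2A1), as for 19.6% of all genes.

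**Figure D2:**
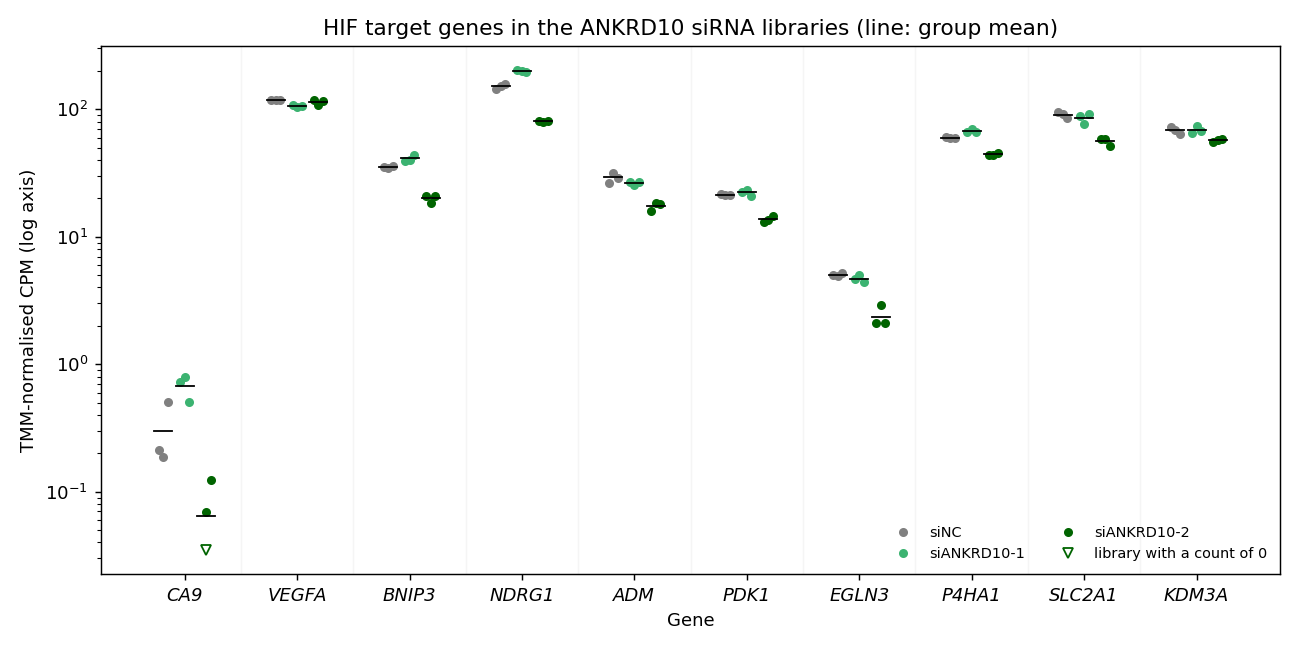
TMM-normalised CPM on a log axis for each of the 10 HIF target genes in the 9 siRNA libraries, 1 point per library, a line at each group mean and an open triangle for a library with a count of 0. The siANKRD10-2 libraries lie below both other groups for every gene but VEGFA, and siANKRD10-1 lies above siNC most clearly for NDRG1 (195 to 204 CPM against 145 to 158 CPM).

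With siANKRD10-2, 8 of the 9 genes that could be tested were lower than with siNC and none was higher, where 36.3% of all 18924 genes tested were called, 18.7% lower and 17.6% higher. The median of the 9 genes was -0.70, beside 0.00111 over all genes. The groups did not overlap for 8 of the 9, as for 46.5% of all genes, and 1 of them, EGLN3, was called with a change of at least 1 on the log2 scale, as were 2.64% of all genes. EGLN3 fell most, from 4.99, 4.91 and 5.16 CPM in siNC to 2.09, 2.92 and 2.09 CPM (log2 fold change -1.09, SE 0.16, adjusted p = 8.08e-06). NDRG1 fell from 145, 152 and 158 to 81.4, 79.7 and 80.4 CPM (log2 fold change -0.91, SE 0.054, adjusted p = 1.25e-12).

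BNIP3 was at 35.2, 34.4 and 36.2 CPM in siNC and at 20.8, 18.5 and 21.1 CPM in siANKRD10-2 (log2 fold change -0.81, SE 0.070, adjusted p = 1.22e-09). ADM, the gene that was also lower in KO1, was at 26.6, 31.8 and 29.1 against 15.8, 18.4 and 18.2 CPM (log2 fold change -0.74, SE 0.081, adjusted p = 5.69e-08). SLC2A1 was at 95.8, 92.0 and 84.7 against 58.2, 58.8 and 51.2 CPM (log2 fold change -0.70, SE 0.063, adjusted p = 2.36e-09). In each of the 3, the groups did not overlap.

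PDK1 fell by 0.64, P4HA1 by 0.43 and KDM3A by 0.25 on the log2 scale, each without overlap (adjusted p from edgeR of 4.56e-07, 1.2e-06 and 0.00118). VEGFA was not called, with 118, 119 and 119 CPM in siNC and 118, 109 and 116 CPM in siANKRD10-2 (log2 fold change -0.052, 95% interval -0.16 to 0.058). CA9 had too few reads for the test, 7, 6 and 16 in the siNC libraries and 0, 2 and 4 in the siANKRD10-2 libraries, and the difference was not tested.

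Epithelial markers moved in the same libraries. Summed over the 10 markers listed, they were at 5424 to 5749 CPM in siNC, 4530 to 4869 in siANKRD10-1 and 3382 to 3498 in siANKRD10-2. Of the 10 markers 7 were called lower in siANKRD10-2 than in siNC and none higher, beside 18.7% and 17.6% of all genes. Their median log2 fold change was -0.66. In bulk RNA fewer cells of a kind and less RNA per cell cannot be told apart. The part of this shift in the HIF targets was not tested.

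With siANKRD10-1, 2 of the 10 genes were called, both higher than in siNC, where 10.6% of all 18785 genes tested were called, 5.08% higher and 5.52% lower. The groups did not overlap for 4 of the 10, as for 28.3% of all genes, and none of the 10 was called with a change of at least 1 on the log2 scale, as were 0.367% of all genes. NDRG1 was at 204, 201 and 195 CPM against 145, 152 and 158 CPM in siNC (log2 fold change 0.40, SE 0.055, adjusted p = 0.000119). BNIP3 was at 39.3, 40.3 and 43.9 against 35.2, 34.4 and 36.2 CPM (log2 fold change 0.22, SE 0.065, adjusted p = 0.0332), and this call was lost when siANKRD10-1 replicate 1 or 3 or siNC replicate 1 or 2 was left out. CA9 counts were 23, 25 and 16 in siANKRD10-1 and 7, 6 and 16 in siNC, overlapping at 16 reads. It reached the count minimum of the filter in 3 of 3 siANKRD10-1 libraries and 1 of 3 siNC libraries, so it entered the test through the group in which it is high, and nothing is drawn from its fit. With CA9 left out, 2 of 9 genes were called and 4 of 9 did not overlap. For the other 7 genes the log2 fold changes lay between -0.15 and 0.18 and none passed. With a replicate block VEGFA (-0.15) and P4HA1 (0.18) were called as well, VEGFA also by DESeq2 (-0.16) and P4HA1 also with all groups of the table in 1 fit.

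CA9 is left out of the counts of siANKRD10-2 against siANKRD10-1, since it reached the count minimum in 3 of 3 siANKRD10-1 libraries and in 0 of 3 siANKRD10-2 libraries and so had to differ. Of the other 9 genes 8 were called, all lower with siANKRD10-2, where 37% of all 18832 genes tested were called, 18.2% higher and 18.8% lower. The groups did not overlap for 8 of the 9, as for 46.9% of all genes, and 2 (NDRG1 and BNIP3) were called with a difference of 1 or more on the log2 scale, as were 2.73% of all genes. The log2 differences were -1.31 (SE 0.053) for NDRG1, -1.03 (SE 0.073) for BNIP3, -0.98 (SE 0.17) for EGLN3, -0.69 (SE 0.081) for PDK1, -0.61 (SE 0.069) for SLC2A1, -0.60 (SE 0.058) for P4HA1, -0.60 (SE 0.077) for ADM and -0.25 (SE 0.061) for KDM3A. VEGFA, at 0.10 (SE 0.054), was the gene not called. The RBPMS background may differ between these siRNA groups, and it cannot be told apart from the isoform here. CA9 had 6 reads over the siANKRD10-2 libraries, its fitted difference (-3.27) depends on the prior count, and DESeq2 gave no adjusted p for it.

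**Figure D3:**
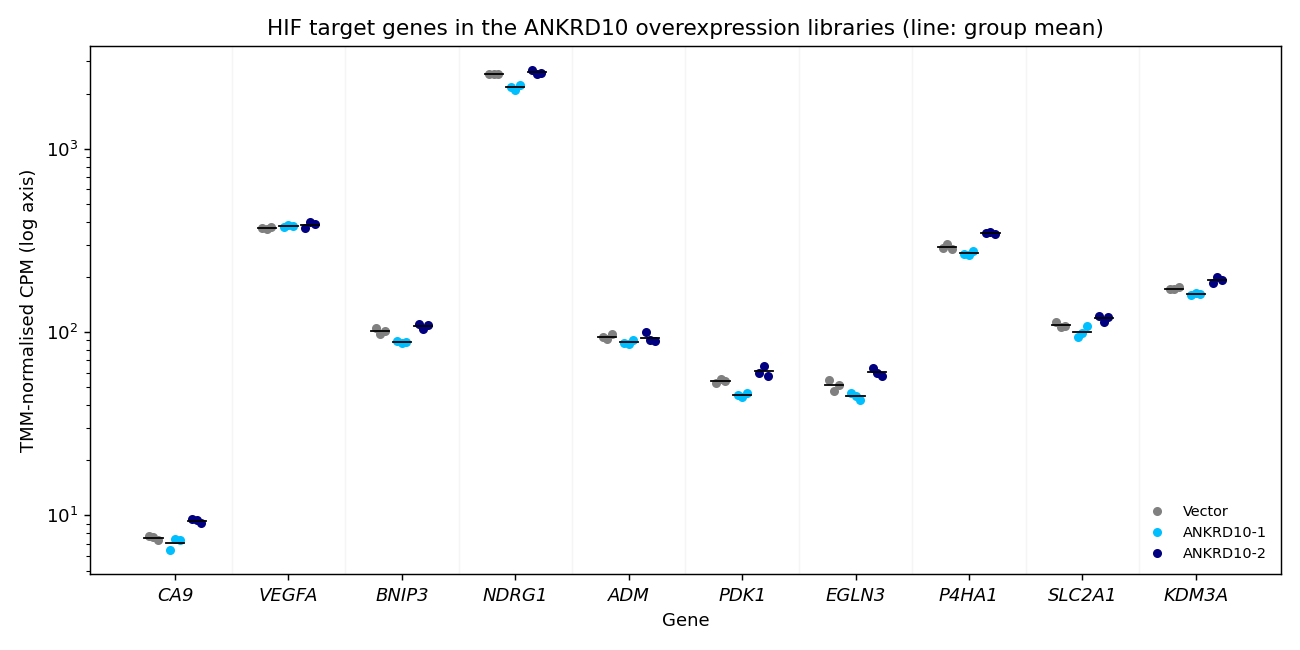
TMM-normalised CPM on a log axis for each of the 10 HIF target genes in the 9 overexpression libraries, 1 point per library and a line at each group mean. ANKRD10-2 lies above ANKRD10-1 without overlap for 8 genes (P4HA1 343 to 351 CPM against 263 to 276 CPM), with Vector mostly between them.

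With ANKRD10-2, 5 of the 10 genes were called, all higher than in Vector, where 19.9% of all 20177 genes tested were called, 10.7% higher and 9.25% lower. The median over the 10 genes was 0.14, beside -0.00549 over all genes. The groups did not overlap for 6 of the 10, as for 36.3% of all genes, and none was called with a change of at least 1 on the log2 scale, as were 1.19% of all genes. P4HA1 showed the firmest difference, with 346, 351 and 343 CPM in ANKRD10-2 and 286, 303 and 284 CPM in Vector (log2 fold change 0.25, SE 0.045, adjusted p = 0.00136). CA9 was at 9.54, 9.43 and 9.12 against 7.75, 7.59 and 7.30 CPM (log2 fold change 0.31, SE 0.089, adjusted p = 0.0242), and EGLN3 at 63.7, 59.9 and 57.9 against 54.6, 47.9 and 51.2 CPM (log2 fold change 0.24, SE 0.062, adjusted p = 0.0144).

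PDK1 (log2 fold change 0.17, SE 0.058, adjusted p = 0.0498) and KDM3A (log2 fold change 0.16, SE 0.046, adjusted p = 0.0253) were the other calls. P4HA1 alone remained called without Vector replicate 2. Without Vector replicate 1 or ANKRD10-2 replicate 2 the calls of CA9, PDK1 and KDM3A were lost, without Vector replicate 3 or ANKRD10-2 replicate 1 those of CA9 and PDK1, and without ANKRD10-2 replicate 3 that of KDM3A. Scaling by library totals, without TMM, also left 1 call, and the PDK1 call was lost as well with RLE factors (0.17) or without the filter (0.17). Epithelial markers moved in the same libraries. Their sum was 3309 to 3711 CPM in ANKRD10-2, 3231 to 3305 in ANKRD10-1 and 2895 to 3065 in Vector. Of the 10 markers 6 were called higher in ANKRD10-2 than in Vector (median 0.24) and none lower, beside 10.7% and 9.25% of all genes. The part of this shift in the HIF targets was not tested.

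With ANKRD10-1, 4 of the 10 genes were called, all lower than in Vector, where 6.31% of all 20457 genes tested were called, 3.5% higher and 2.81% lower. The groups did not overlap for 7 of the 10, as for 25.7% of all genes, and none was called with a change of at least 1 on the log2 scale, as were 0.391% of all genes. PDK1 was at 45.1, 44.3 and 46.7 CPM in ANKRD10-1 and 52.5, 55.8 and 54.4 CPM in Vector (log2 fold change -0.26, SE 0.051, adjusted p = 0.0049), and NDRG1 at 2187, 2095 and 2222 against 2565, 2544 and 2557 CPM (log2 fold change -0.24, SE 0.042, adjusted p = 0.00215). EGLN3 (log2 fold change -0.20, SE 0.058, adjusted p = 0.0499) and BNIP3 (log2 fold change -0.19, SE 0.046, adjusted p = 0.0162) were the other calls, and both were lost without ANKRD10-1 replicate 1 or 2 or without Vector replicate 1. The EGLN3 call was also lost without ANKRD10-1 replicate 3 or Vector replicate 3, with RLE factors (-0.20) or with all groups of the table in 1 fit (-0.20), and with library totals P4HA1 was called (-0.16). Of the epithelial markers 4 of 10 were called higher in ANKRD10-1 than in Vector and none lower, beside 3.5% and 2.81% of all genes. Both comparisons use the same Vector libraries, so they are not independent.

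The direct comparison of the isoforms had more calls among the 10 genes than either comparison with Vector. The RBPMS background may differ between the isoform groups, and it cannot be told apart from the isoform here. ANKRD10-2 was above ANKRD10-1 in 8 of the 10 genes and below it in none, where 7.26% of all 20052 genes tested were called, 4.15% higher and 3.1% lower. The groups did not overlap for 8 of the 10, as for 25.9% of all genes, and none was called with a difference of at least 1 on the log2 scale, as were 0.359% of all genes. EGLN3 was at 63.7, 59.9 and 57.9 CPM in ANKRD10-2 and 46.4, 45.0 and 42.7 CPM in ANKRD10-1 (log2 fold change 0.44, SE 0.059, adjusted p = 7.99e-05), and PDK1 at 60.0, 65.3 and 57.9 against 45.1, 44.3 and 46.7 CPM (log2 fold change 0.43, SE 0.059, adjusted p = 0.000103). CA9, P4HA1, BNIP3, NDRG1, KDM3A and SLC2A1 differed by 0.40, 0.37, 0.28, 0.27, 0.25 and 0.24 on the log2 scale. The CA9 call was lost without ANKRD10-1 replicate 1, and the SLC2A1 call without ANKRD10-1 replicate 1 or 2 or ANKRD10-2 replicate 3. VEGFA (0.022, 95% interval -0.082 to 0.13) and ADM (0.081, -0.035 to 0.20) were not called.

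**Figure D4:**
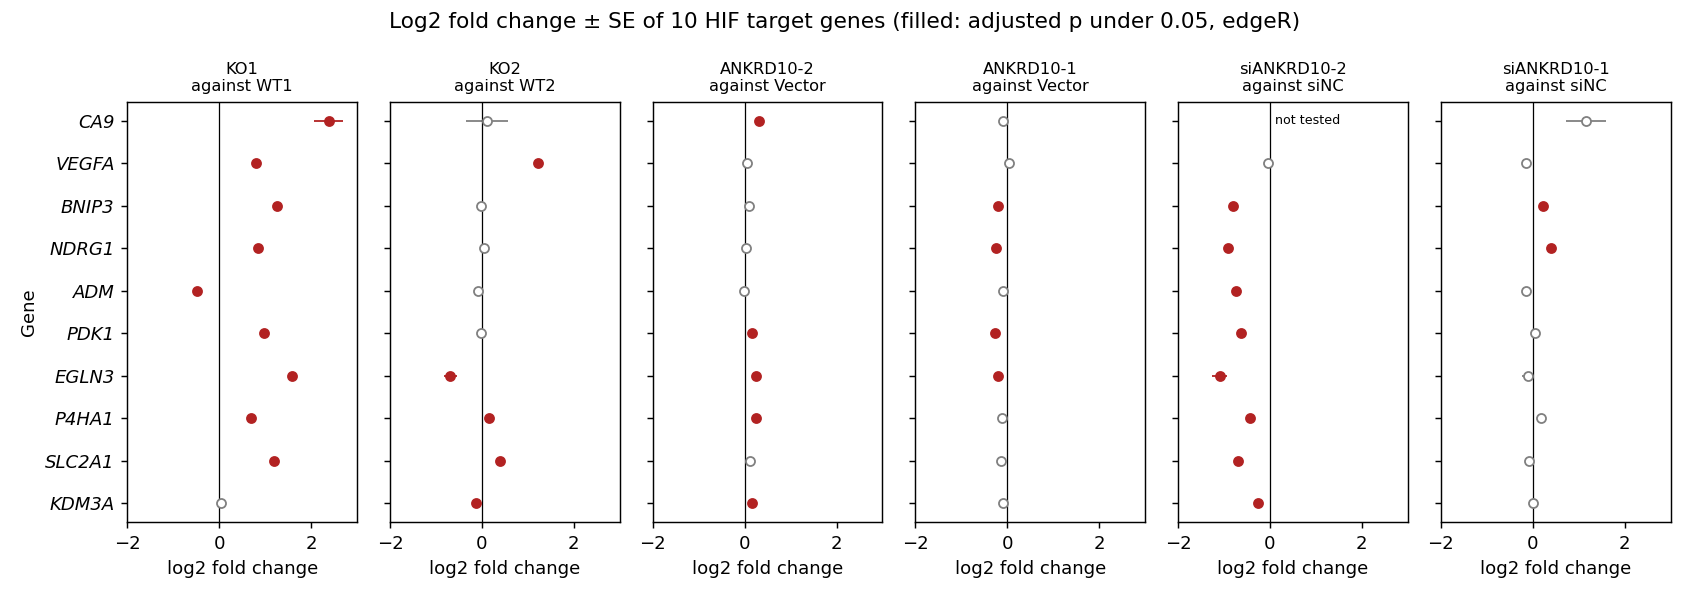
Log2 fold change of each of the 10 HIF target genes in the 6 comparisons with a control group, bars showing the SE and filled points an adjusted p under 0.05 from edgeR. Most points lie right of 0 in KO1, near 0 in KO2 apart from VEGFA, SLC2A1 and EGLN3, and left of 0 in siANKRD10-2, while no overexpression value lies further from 0 than 0.31.

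Within the HIF machinery, mRNAs moved in both directions. Of 12 such genes listed 11 could be tested in each comparison. HIF1A, the main alpha subunit, was at 1054, 1157 and 1030 CPM in KO1 against 902, 939 and 978 CPM in WT1 (log2 fold change 0.20, SE 0.053, adjusted p = 0.0129) and at 1124, 1123 and 1205 against 869.7, 859 and 852 CPM in KO2 and WT2 (log2 fold change 0.42, SE 0.031, adjusted p = 6.27e-07). EPAS1, the other alpha subunit, was likewise higher in both, by 0.15 (SE 0.044) in KO1 and 0.36 (SE 0.033) in KO2. The difference of HIF1A between the knockouts, KO1 minus KO2, was -0.22 (SE 0.064, adjusted p = 0.0203 from edgeR). The part of HIF1A mRNA in the changes of the targets was not tested. The HIF1A call in KO1 was lost without WT1 replicate 1 (0.17) or 2 (0.20), that of EPAS1 in KO1 without KO1 replicate 1 (0.15) or WT1 replicate 3 (0.13) or with library totals (0.11), and that of the HIF1A difference without KO2 replicate 3 (-0.19) or WT2 replicate 3 (-0.21) or without the filter on low counts (-0.21).

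In siANKRD10-2, HIF1A was at 505, 496 and 529.8 CPM against 691, 694 and 695 CPM in siNC (log2 fold change -0.44, SE 0.051, adjusted p = 1.53e-07), whereas it was not called in siANKRD10-1 (-0.11), ANKRD10-2 (0.012) or ANKRD10-1 (0.086). EGLN1, the hydroxylase thought to do most of the oxygen sensing and itself a HIF target, was higher in KO1 (0.37) and KO2 (0.33) and lower in siANKRD10-2 (-0.61) and ANKRD10-1 (-0.23). The EGLN1 call in ANKRD10-1 was lost without ANKRD10-1 replicate 1 (-0.22) or 2 (-0.20) or Vector replicate 2 (-0.19). Of the 11 tested, 3 were higher and 5 lower in KO1, 4 and 4 in KO2, and 3 and 5 in siANKRD10-2, beside 36.1%, 38.5% and 36.3% of all genes called in either direction. The 8 calls in KO1 became 5 without KO1 replicate 1 or WT1 replicate 1 or 2. ARNT2 was the furthest from 0 in KO1 (-0.82), and in siANKRD10-2, where EGLN1 fell, EGLN2 rose (0.50).

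A list of 30 other HIF targets that are not in the list of glycolysis enzymes was counted beside the 10 genes. PFKFB4 and SLC16A3 in it stand close to that pathway. In KO1, 15 were higher and 1 lower of 29 tested (median 0.26), beside 17.9% and 18.2% of all genes, among them STC2 (1.45), a secreted glycoprotein, and CA12 (1.34), a carbonic anhydrase like CA9. In KO2, 9 were higher and 5 lower of 28 tested (median -0.050), beside 19.3% and 19.2% of all genes. LOXL2, an enzyme that cross-links collagen, had the largest rise there (1.61), and STC2 was again higher (0.88). In siANKRD10-2, 16 were lower and 3 higher of 29 tested (median -0.26), beside 18.7% and 17.6% of all genes. Among those with a mean of at least 50 normalised counts, AK4 (-0.98), a mitochondrial adenylate kinase, FAM162A (-0.94) and DDIT4 (-0.91), an inhibitor of mTORC1, fell most.

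With siANKRD10-1, 7 of 28 were higher and 2 lower, EFNA1, an ephrin ligand, the largest (0.52), beside 5.08% and 5.52% of all genes, and these 9 calls became 5 without siANKRD10-1 replicate 1 and 4 without siNC replicate 2. With ANKRD10-2, 5 of 30 were called, all higher, among them ANKRD37 (0.57). This is near the background, since 19.9% of all genes were called there and 10.7% were higher. With ANKRD10-1, 7 were lower and 1 higher, beside 2.81% and 3.5% of all genes, and the 8 calls became 13 with library totals. ANGPTL4, a secreted lipase inhibitor, fell by 0.53 there and PLOD2, a collagen lysyl hydroxylase, by 0.49 on the log2 scale. ANKRD10-2 was above ANKRD10-1 in 12 of 30 and below it in none, beside 4.15% and 3.1% of all genes.

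Placed beside 17 glycolysis enzymes and 20 MYC targets outside glycolysis, the 10 HIF targets went different ways in different comparisons. HK2 and PGK1, which the study also measured as MYC targets, were counted with glycolysis only. The shares of all genes called in each direction, given above for each comparison, are the background of these counts too. In KO1 all 3 lists were mostly higher. The medians were 0.90 for the HIF targets, 0.50 for glycolysis (12 higher and 2 lower) and 0.53 for the MYC targets (17 higher and 1 lower). LDHA, lactate dehydrogenase A, rose by 0.98, PGK1, phosphoglycerate kinase, by 0.73 and C1QBP, a MYC target, by 0.81 on the log2 scale. Glycolysis enzymes such as LDHA and PGK1 have near-identical pseudogenes, and how reads shared with them were counted is not given in the sources used here.

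In KO2, 11 glycolysis enzymes were higher and 1 lower (median 0.20), and 18 MYC targets were higher and none lower (median 0.43), beside a median of 0.016 for the HIF targets. The glycolysis enzyme ALDOC had the largest change there (1.41, SE 0.39). HK2, a hexokinase, rose by 0.72 and SRM, spermidine synthase, by 0.82, while ENO2, the neuronal enolase, fell (-0.82).

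In siANKRD10-2 the HIF targets had the lowest median of the 3 lists, -0.70, beside -0.12 for glycolysis (8 lower and 3 higher) and -0.15 for the MYC targets (10 lower and 2 higher). The epithelial markers, outside these lists, had a median of -0.66 there. The glycolysis enzymes furthest down were HK2 (-1.14), PGK1 (-0.92) and LDHA (-0.88), of the size of NDRG1 (-0.91) and BNIP3 (-0.81). Under ANKRD10-1, 12 MYC targets were higher and none lower (median 0.25), 1 glycolysis enzyme was higher and 4 lower (-0.00764), and 4 HIF targets were lower and none higher (-0.12). The 5 glycolysis calls became 3 without ANKRD10-1 replicate 1 or 2 or Vector replicate 1. With ANKRD10-2 all 3 lists had higher calls and no lower ones, 15 of 20 MYC targets (0.33), 9 of 17 glycolysis enzymes (0.14) and 5 of 10 HIF targets (0.14), beside 10.7% of all genes higher, and with library totals the 9 glycolysis calls became 4. In siANKRD10-1 the counts higher were 2 of 20, 3 of 17 and 2 of 10, with none lower, beside 5.08% of all genes higher. For the MYC targets this is near the background, and their calls became 4 with a replicate block, 1 without siNC replicate 1 or 2 and 4 without siNC replicate 3. Between the isoforms, 8 of 17 glycolysis enzymes and 2 of 20 MYC targets were higher with ANKRD10-2, as were 8 of the 10 HIF targets, and 1 MYC target was called without ANKRD10-1 replicate 1 or 3. The lists differ in size and level, and the difference between lists was not tested.

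The 10 genes were also compared in their pattern over all 30 libraries, each library's log2 CPM taken as its deviation from the mean over its table. Pearson's r is given as a description, since the libraries share groups and controls. Among 13220 genes, and leaving out the 10 themselves, the gene most like BNIP3 was LDHA (r = 0.95), and LDHA was also most like PDK1 (0.94) and P4HA1 (0.95). NDRG1 was most like PGK1 (0.98), CA9 most like HTRA1 (0.91), EGLN3 most like POLR1E (0.91), SLC2A1 most like PYGL (0.93) and KDM3A most like RAD23B (0.85). The nearest genes to VEGFA and ADM were PLAU (0.97) and COX6B1 (0.90).

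Within the list, BNIP3, P4HA1 and PDK1 were closest to the rest, with median r to the other 9 genes of 0.90, 0.88 and 0.88. VEGFA, at a median r of 0.24, and ADM, at 0.0751, stood apart. These are the genes that differed between the knockouts in the opposite direction to the other 7. VEGFA was the gene not called by edgeR without a replicate block in any comparison of the ANKRD10 experiments. In siANKRD10-1, edgeR with a replicate block and DESeq2 called it.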

How the data were processed

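RNA-seq libraries were made with a stranded mRNA kit per the labels. The submitters' processing notes name Trimmomatic 0.36, featureCounts (Subread 1.5.1) and GRCh38, and the study's methods name Cutadapt, HISAT2 and StringTie. Whether reads were counted by strand is not given in the sources used here. The authors deposited raw read counts per gene in 3 tables, by Ensembl identifier for the knockouts (60612 genes, of which 42020 were given a symbol) and by symbol for the others (56303 genes each).

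Each comparison was fitted with only its own libraries in edgeR 4.0.16 (R 4.3.3): filterByExpr (minimum count 10, minimum total 15), TMM, the quasi-likelihood test and Benjamini-Hochberg adjustment over all genes tested. The prior count behind fitted log2 fold changes was 0.125. An exact permutation test of 3 against 3 cannot give a p below 0.1. The members and lists were chosen with earlier results of these data known. List genes named were the called ones without overlap, of at least 50 mean normalised counts, with the largest changes (up to 3 per list and comparison), besides the HIF subunits and hydroxylases. Alternatives were DESeq2 1.42.0, RLE factors, library totals, no filter, a fold threshold, a replicate block, wider fits and leaving out each library, and for the counts of the other lists they were added after the data had been seen. The fits were tested on simulated data. Depth limits the precision for CA9 in the knockdown table, with 0 to 25 reads per library.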

Additional observations from a re-analysis of the deposited data

Results flagged for a closer look

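For 9 of the 10 HIF targets the change in KO1 differed from the change in KO2, by edgeR's test of the difference between the knockouts (KO1 against WT1 minus KO2 against WT2, 3 libraries a group, adjusted over 19189 genes, of which 23.3% were called). EGLN3, the HIF-induced prolyl hydroxylase, differed by 2.26 (SE 0.15) on the log2 scale, higher than the control in KO1 and lower in KO2. CA9, the surface carbonic anhydrase, differed by 2.27 (SE 0.46). The mitophagy protein BNIP3 differed by 1.27 (SE 0.10), the kinase PDK1 by 0.99 (SE 0.080), the glucose transporter SLC2A1 by 0.80 (SE 0.087), NDRG1 by 0.78 (SE 0.068) and P4HA1 by 0.55 (SE 0.089). For VEGFA, higher in both knockouts, the difference was -0.42 (SE 0.12), and for ADM, called lower in KO1 only, it was -0.40 (SE 0.11). The control groups are separate libraries, and a difference between clones cannot be told apart from a difference between sgRNAs.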

How the results depend on the processing

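Asking also for a change of 1 or more in size on the log2 scale left 4 of the 10 HIF targets called in KO1, 1 in KO2, 3 for the difference between the knockouts, 1 in siANKRD10-2, 3 in siANKRD10-2 against siANKRD10-1 and 0 in siANKRD10-1, ANKRD10-2, ANKRD10-1 and ANKRD10-2 against ANKRD10-1. Without the filter on low counts KO2 had 3 calls, and with library totals in place of TMM ANKRD10-2 had 1. With DESeq2, WT2 against WT1 had 1 call. The deviations of same-numbered replicates were at most weakly correlated (r from -0.0329 to 0.0786 over 27 pairs). In KO2 against WT2 (0.044 to 0.049) and ANKRD10-2 against Vector (0.025 to 0.073) every replicate was most like the control of its own number. In no other comparison did this hold for every replicate. Such small values cannot settle whether the numbers pair samples. A replicate block gave siANKRD10-1 4 calls in place of 2 and moved no other count of these targets by over 1.5 times.

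Leaving out 1 library at a time, the calls ranged from 3 to 5 in KO2, 1 to 4 in ANKRD10-2, 2 to 4 in ANKRD10-1 and 1 to 3 in siANKRD10-1, and from 9 to 9 in KO1, 8 to 8 in siANKRD10-2, 9 to 9 in siANKRD10-2 against siANKRD10-1 (CA9 counted, here and for the fold rule), 6 to 8 in ANKRD10-2 against ANKRD10-1 and 7 to 9 for the difference between the knockouts. The upper value of 3 in siANKRD10-1 includes CA9, called without siNC replicate 3. CA9 entered that test through the siANKRD10-1 libraries, so nothing is drawn from this call.

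The values that turned direction were all uncalled. With all 6 WT1 and WT2 libraries as controls, BNIP3 and PDK1 in KO2 were 0.083 and 0.076. With library totals, KDM3A in KO1 was -0.00105, VEGFA and NDRG1 in ANKRD10-2 were -0.024 and -0.044, VEGFA was -0.0115 in ANKRD10-1 and -0.0121 in ANKRD10-2 against ANKRD10-1, and ANKRD10 in siANKRD10-2 against siANKRD10-1 was 0.023. With 1 library left out, the ranges were -0.00825 to 0.29 (CA9), -0.11 to 0.030 (BNIP3) and -0.056 to 0.015 (PDK1) in KO2, and -0.068 to 0.015 (ADM) and -0.044 to 0.17 (RBPMS) in ANKRD10-2. They were -0.058 to 0.050 (KDM3A) and -0.18 to 0.022 (RBPMS) in siANKRD10-1 and -0.040 to 0.16 (RBPMS) in siANKRD10-2. In the direct comparisons they were -0.00369 to 0.051 (VEGFA, ANKRD10-2 against ANKRD10-1) and -0.031 to 0.030 (ANKRD10, siANKRD10-2 against siANKRD10-1), and for WT2 against WT1 -0.066 to 0.21 (CA9), -0.015 to 0.026 (KDM3A) and -0.13 to 0.070 (VEGFA). The cause was not tested.

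CA9 in siANKRD10-2 against siNC had a value only without the filter (-2.12, adjusted p = 0.0563, edgeR) or with all groups of the table in 1 fit, which it entered through the siANKRD10-1 libraries alone, so that no call is drawn from it. DESeq2 gave CA9 no adjusted p in siANKRD10-1, siANKRD10-2 against siANKRD10-1 and WT2 against WT1. Over all genes, the fold rule cut the calls from 6454 to 1149 in KO1, from 7034 to 1095 in KO2 and from 6874 to 500 in siANKRD10-2.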

Other observations

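The mRNA of RBPMS, the gene edited in the knockout experiment, was at 5.24, 5.43 and 4.74 CPM in Vector and at 5.87, 4.63 and 4.53 CPM in siNC, both below the 15.1, 15.2 and 14.3 CPM of KO1, in tables that were normalised separately and not tested against each other. Within the overexpression and knockdown experiments RBPMS did not pass edgeR's test in any group against its control, with log2 fold changes from -0.19 (ANKRD10-1) to 0.081 (ANKRD10-2).

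Loci that overlap members on the genome had counts of their own in the symbol tables. RP11-344N10.2, inside P4HA1, had a mean of 83.3 CPM in the overexpression table and 11.5 CPM in the knockdown table. AC093818.1, which overlaps the start of PDK1, had 32.5 and 29.2 CPM, and RP1-261G23.7, inside VEGFA, 90.7 and 23.7 CPM. SPTSSA, inside the span of EGLN3, had 85.6 and 63.4 CPM. How reads shared by such loci were assigned is not given in the sources used here.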
